A study of Mus musculus with 12 samples.

Results

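The red-cell miRNAs Mir-144, Mir-451 and Mir-486 were followed in small RNA libraries from the hippocampus of male wild-type C57BL/6J mice. Of the 513 miRNA arms in the deposited table, 5 belong to these 3 genes, chosen by name: Mir-451_5p, Mir-144_3p, Mir-144_5p, Mir-486_5p and the passenger arm Mir-486_3p*. The asterisk marks an arm listed as the less used strand of its hairpin, and the Mir-144_3p and Mir-144_5p rows each carry a pair of variant names, v1 and v2, of the same hairpin. The exercised lineage comprised 6 mice of the F2 generation whose paternal-line grandfather (F0) was exercised, and the sedentary lineage 6 mice whose grandfather was sedentary. No exercise of the F2 mice themselves is mentioned in the labels, which give no age and do not say whether blood was washed out of the brain before dissection. The comparison asks whether the hippocampal miRNA profile of the grandsons differs with the exercise of the grandfather.

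Mir-144 and Mir-451 are made from 1 primary transcript that the factor GATA1 switches on in erythroid precursors, and both remain abundant in mature red cells. Mir-451 is known for skipping Dicer: its precursor hairpin, without flanking bases, is too short for that enzyme and is cut by Ago2 instead, so a mature strand arises from only 1 side. Mouse work links Mir-451 to red cell maturation and to the survival of red cells under oxidative stress, partly through its target Ywhaz, which encodes 14-3-3 zeta. Mir-486 is made from within the ankyrin gene Ank1, which encodes a protein of the red cell membrane skeleton, and is known from both erythroid and muscle cells. In bulk brain tissue these miRNAs can come from red cells that remain in the vessels.

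Mir-144 and Mir-451 lie side by side on the plus strand of chromosome 11 in the GRCm38 build, at 78073005 to 78073070 and 78073170 to 78073241, with 99 bases between the hairpins. In the GENCODE annotation neither overlaps another gene on its own strand, and the nearest protein-coding gene is Eral1, on the minus strand, 135 bases beyond Mir-451. GENCODE also places Mir451b on the minus strand at the same bases as Mir-451, and the table has no row for it under that name. Mir-486 lies on the plus strand of chromosome 8 within Ank1, where it overlaps no Ank1 exon in GENCODE, and within a further annotated gene, Gm15816. A minus-strand gene, Mir3107, lies at the same place, and the sources used here do not give how reads were divided between it and Mir-486.

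The RefSeq sequences of the cluster (GRCm38.p6, plus strand, written 5′ to 3′) are shown because the hairpins differ in how many mature strands they hold. In the hairpins the capitals mark the mature strands.
Mir-144 hairpin: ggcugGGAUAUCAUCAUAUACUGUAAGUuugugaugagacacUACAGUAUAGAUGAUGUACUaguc
Mir-451 hairpin: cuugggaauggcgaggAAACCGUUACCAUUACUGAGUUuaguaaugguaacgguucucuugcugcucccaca
The Mir-144 hairpin has 66 bases and holds a mature strand on either side of its loop, at bases 6 to 28 and 43 to 62. The Mir-451 hairpin as listed has 72 bases, flanking bases before the mature strand included, and holds 1 mature strand, at bases 17 to 38. In the fold computed with RNAfold the terminal loop of Mir-451 covers bases 35 to 38, so the last 4 bases of the mature strand are the loop itself. Neither mature strand of Mir-144 enters its computed loop, at bases 31 to 36. The table lists 2 arms of Mir-144 and the 5p arm alone of Mir-451.

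**Figure D1:**
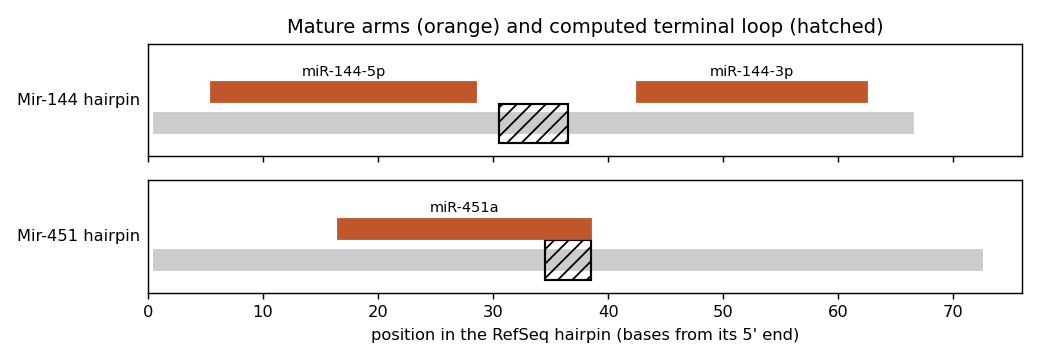
Position of the mature strands (orange) in the RefSeq hairpins of Mir-144 and Mir-451 (grey), in bases from the 5′ end, with the terminal loop of the computed fold hatched. The mature strand of Mir-451, at bases 17 to 38, runs to the end of the loop, while the 2 strands of Mir-144 lie on either side of theirs.

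The seed, bases 2 to 8 of a mature miRNA, is the stretch that pairs with target transcripts, and it is in capitals in the following strands.
miR-451a: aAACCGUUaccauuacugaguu
miR-144-3p: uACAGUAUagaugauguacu
miR-144-5p: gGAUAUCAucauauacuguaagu
miR-101a-3p: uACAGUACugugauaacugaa
No other mature miRNA of the RefSeq mouse table had the seed of any of the 3 cluster strands. miR-101a-3p, of chromosome 4 (101346957 to 101346977, minus strand), is shown because it shares bases 2 to 7 with miR-144-3p and differs within the seed at base 8.

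Values are given as normalized counts, in which the reads of each arm were scaled by the size factor of their library. Libraries held 6862623 to 10219856 reads on all arms. No 2 libraries had identical values, and over the 474 tested arms the log2 values of any 2 libraries correlated with a Pearson r of 0.960 to 0.989. The codes that the submitters gave the libraries begin with R31 (exercised-lineage mice 1 to 3), R41 (exercised-lineage mice 4 to 6), S11 (sedentary-lineage mice 1 to 3) or S41 (sedentary-lineage mice 4 to 6), and the labels leave the meaning of these 4 beginnings unstated. Each such set of 3 libraries holds 1 lineage, so a set and its lineage cannot be told apart. The correlation of libraries within a set, estimated by limma over all tested arms, was -0.0041, and with it in the fit Mir-451_5p had an unadjusted p of 0.0244 (adjusted p = 0.524). That correlation is a consensus over all arms, so it cannot show how alike the libraries of a set were for Mir-451_5p. The 7 arms of the neuronal miRNAs Mir-9, Mir-124 and Mir-128 summed to 1861680 to 3204240 normalized counts in mice of exercised lineage and 2402460 to 3041000 in those of sedentary lineage. No other tissue was compared, so these sums cannot tell hippocampus from other brain tissue.

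Red-cell miRNAs were a trace part of these hippocampal libraries. The 5 arms together made up 0.00864% ± 0.00118 of the normalized counts of exercised-lineage libraries and 0.0105% ± 0.00240 of those of sedentary-lineage libraries (SD, n = 6 each). In order of mean level, Mir-486_5p stood at 514 normalized counts over the 12 libraries, Mir-451_5p at 230, Mir-144_3p at 29.0, Mir-144_5p at 11.2 and Mir-486_3p* at 10.7. These are counts per arm, uncorrected for the small differences in length between mature strands, and adapters can favour some strands over others. Mir-486_5p was above Mir-451_5p in all 12 libraries, and Mir-451_5p above Mir-144_3p in all 12. Mir-144_5p and Mir-486_3p* had overlapping values, and their means differed by less than the spread between libraries. All 5 arms reached the mean of 10 that admitted an arm to the test, but Mir-144_5p did so through the sedentary lineage alone, and Mir-486_3p* through the exercised lineage alone.

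**Figure D2:**
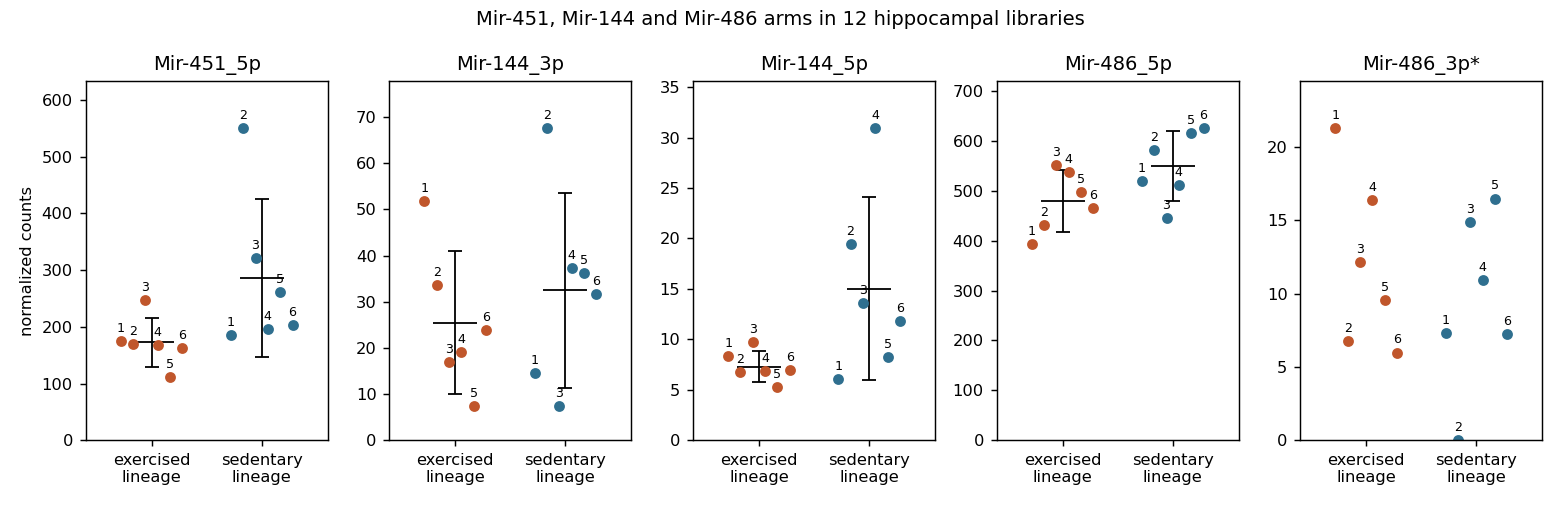
Normalized counts (y axes from 0, a scale for each panel) of the 5 arms in the 6 exercised-lineage and 6 sedentary-lineage libraries. Points carry the mouse number, and bars give mean ± SD (no bar for Mir-486_3p*, which is listed at 0 in sedentary-lineage mouse 2); Mir-451_5p reaches 550 in sedentary-lineage mouse 2 and no more than 248 in the exercised lineage.

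Mir-451, a miRNA highly specific to red cells, was lower in most exercised-lineage libraries, but the difference did not pass the test over all arms. Mir-451_5p ranged from 111.4 to 247.6 normalized counts with a median of 169 in the exercised lineage, and from 185 to 550 with a median of 232 in the sedentary lineage. In the exercised lineage, 5 of 6 libraries lay below the lowest sedentary-lineage library, and mouse 3, at 248, lay within the sedentary range. The groups therefore overlapped through 1 library. The means were 173 ± 43.6 in mice of exercised lineage and 286 ± 139 in those of sedentary lineage (SD, n = 6 each). The log2 difference, exercised minus sedentary lineage on log2(value + 1), was -0.65 (SE 0.26, 95% confidence interval -1.20 to -0.10), a ratio of 0.637. In limma the unadjusted p was 0.0250, the 13th smallest of 474, and the adjusted p was 0.532. Over all 474 arms, 0% passed the adjusted threshold of 0.05, 7.17% had an unadjusted p below 0.05, and 3.59% had such a p with a difference below 0.

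A pair of libraries marked the ends of the Mir-451 range. Sedentary-lineage mouse 2 stood at 550 (537 reads), with an exact Poisson interval of 505 to 599 that covers counting error only. Exercised-lineage mouse 5 stood at 111.4 (105 reads, interval 91.1 to 135). The range over the 12 libraries was 4.94-fold, far beyond these counting intervals. Without sedentary-lineage mouse 2 the log2 difference was -0.44, and without exercised-lineage mouse 5 it was -0.53. Means by set were 198 for R31 and 148 for R41 in the exercised lineage, and 352 for S11 and 220.5 for S41 in the sedentary lineage (n = 3 each). Without the S11 libraries the difference was -0.38, and without the S41 libraries -0.92. When libraries were scaled to equal totals, the difference was -0.56 (limma unadjusted p = 0.0615). In bulk tissue, fewer red cells and less Mir-451 per red cell cannot be told apart.

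Mir-144_3p, whose mouse and human targets include the oxidative stress regulator gene Nfe2l2, showed no stable difference. It ranged from 7.43 to 51.8 normalized counts with a median of 21.5 in the exercised lineage, and from 7.44 to 67.6 with a median of 34.0 in the sedentary lineage. The groups covered almost the same range, and each had 1 library at about 7.4, exercised-lineage mouse 5 (7 reads) and sedentary-lineage mouse 3 (6 reads). The log2 difference was -0.27 (SE 0.52, interval -1.39 to 0.86, limma adjusted p = 0.896). It was 0.02 without exercised-lineage mouse 5 and -0.00 without sedentary-lineage mouse 2, so its direction rested on single libraries.

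The other strand, Mir-144_5p, was low and narrow in the exercised lineage, with counts too few for a firm comparison. It ranged from 5.30 to 9.71 normalized counts with a median of 6.90 in the exercised lineage, and from 6.09 to 30.95 with a median of 12.7 in the sedentary lineage. All 6 exercised-lineage libraries lay below the sedentary median, and 4 of 6 sedentary-lineage libraries lay above the exercised maximum. The groups overlapped through sedentary-lineage mice 1 and 5, at 6.09 and 8.24. The log2 difference was -0.79 (SE 0.38, interval -1.62 to 0.04, limma adjusted p = 0.532), and -0.55 without sedentary-lineage mouse 4, the highest library at 30.95. Behind these values stood 5 to 34 reads per library, so adding 1 before the log shrinks the difference. It was -0.46 with 10 added.

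Mir-486_5p, known in mouse muscle for repressing Foxo1, was the steadiest of the 5 arms. It ranged from 393 to 552 normalized counts with a median of 482 in the exercised lineage, and from 445 to 625 with a median of 551 in the sedentary lineage. In the exercised lineage 5 of 6 libraries lay below the sedentary median, and the ranges overlapped over most of their length. The means were 479 ± 61.3 in mice of exercised lineage and 550 ± 69.8 in those of sedentary lineage (SD, n = 6 each), a log2 difference of -0.20 (SE 0.11, interval -0.44 to 0.05, limma adjusted p = 0.532). When libraries were scaled to equal totals it was -0.11. Its range over the 12 libraries was 1.59-fold, against 4.94-fold for Mir-451_5p and 9.11-fold for Mir-144_3p.

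The passenger arm Mir-486_3p* had 5.98 to 21.3 normalized counts with a median of 10.8 in the exercised lineage, and 0 to 16.5 with a median of 9.11 in the sedentary lineage. Sedentary-lineage mouse 2 is listed at 0, the same library in which Mir-451_5p and Mir-144_3p were highest. The mean of the other 11 libraries corresponds to 11.4 reads there, and a count of 0 allows a value of up to 3.07 (3 reads). The log2 difference was 0.61 (SE 0.65, interval -0.78 to 2.01, limma adjusted p = 0.720), 0.20 with 10 in place of 1 added before the log, and 0.02 without that library.

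**Figure D3:**
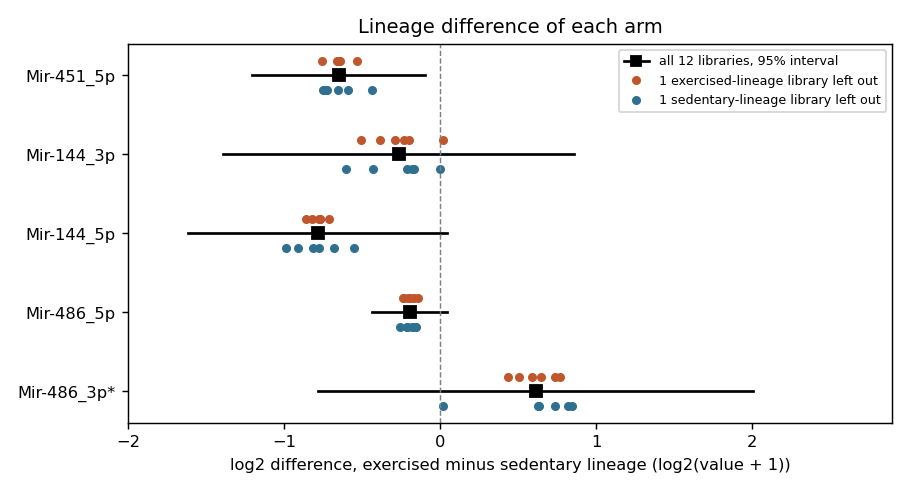
Log2 difference of each arm, exercised minus sedentary lineage (x axis, log2(value + 1) scale). Black squares and lines give all 12 libraries with the 95% confidence interval, orange and blue points the value with 1 exercised-lineage or 1 sedentary-lineage library left out. Mir-451_5p stays between -0.76 and -0.44, while Mir-486_3p* is at 0.02 with sedentary-lineage mouse 2 left out.

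Of the 5 arms, 4 had a difference below 0 and 1 above, with a median of -0.27. Over all 474 tested arms 236 were above 0 and 238 below (50.2%), with a median of -0.00. Scaled to equal totals, 308 of all arms were above 0 and 166 below, with a median of 0.08, and the red-cell arms kept 1 above and 4 below, with a median of -0.18. A difference past 0.5 in size was found for 7.81% of all arms, Mir-451_5p, Mir-144_5p and Mir-486_3p* among them. Nothing is read from that count, or from the signs and median of the 5 arms. Mir-144_5p and Mir-486_3p* passed the filter only through the lineage in which they were higher, which ties their signs to the filter. For none of the tested arms were the lineages free of overlap (0%). With 2 pairs of arms from the same hairpins and 2 genes on 1 transcript, the 5 values are not independent. The spread within lineages differed between the arms. On the log2 scale it was 0.49 for Mir-451_5p, more than for 83.3% of the 96 arms whose mean was within 2-fold. For Mir-144_3p it was 0.99, more than for 83.1% of 89 such arms, and for Mir-144_5p 0.58, more than for 40.4% of 57 such arms. For Mir-486_5p it was 0.19, more than for 27.3% of 88 such arms.

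Strands made from the same transcript or hairpin did not keep a fixed ratio from library to library. Mir-451_5p exceeded Mir-144_3p by 3.35-fold in exercised-lineage mouse 1, where Mir-144_3p was second highest of all, and by 38.2-fold in sedentary-lineage mouse 3, where Mir-451_5p was second highest and Mir-144_3p stood on 6 reads (7.44 normalized counts, exact Poisson interval 2.73 to 16.2). The log2 ratio was 2.89 ± 0.81 in mice of exercised lineage and 3.28 ± 1.05 in those of sedentary lineage (SD, n = 6 each), and the groups overlapped. Between the arms of Mir-144, the log2 ratio of 5p to 3p was -1.47 ± 0.80 in mice of exercised lineage and -0.95 ± 1.05 in those of sedentary lineage. The 3p arm was higher in 11 of 12 libraries, the exception being sedentary-lineage mouse 3. The log2 ratio of Mir-451_5p to Mir-486_5p was -1.49 ± 0.38 in mice of exercised lineage and -1.04 ± 0.62 in those of sedentary lineage. It came nearest to 0 in sedentary-lineage mouse 2, at -0.08. These ratios compare arms within a library, so library scaling moves them only through the 1 added before the log, and they were not tested between the lineages.

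Across the 12 libraries, 3 pairs of arms were compared by permutation test on log2(value + 1), and none passed. Mir-451_5p and its neighbour Mir-144_3p had a Pearson r of 0.37 (permutation p = 0.229, adjusted 0.410) and a Spearman rho of 0.31 (permutation p = 0.331, adjusted 0.497). Without the 2 libraries farthest from the Mir-451 median, exercised-lineage mouse 5 and sedentary-lineage mouse 2, r was -0.51 (permutation p = 0.138), so the positive value rested on those libraries. Leaving out sedentary-lineage mouse 2 alone gave r of 0.03, and leaving out sedentary-lineage mouse 3 alone gave 0.67 (permutation p = 0.0267, adjusted 0.0801). Within the lineages r was 0.45 in mice of exercised lineage and 0.32 in those of sedentary lineage (exact permutation p = 0.346 and 0.513, n = 6 each). Mir-451_5p and Mir-486_5p had r of 0.35 (permutation p = 0.274, adjusted 0.410) and rho of 0.47 (permutation p = 0.128, adjusted 0.385), and r of 0.25 without the same 2 libraries. Within the lineages their r was 0.18 in mice of exercised lineage and 0.02 in those of sedentary lineage (exact permutation p = 0.808 and 0.963).

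The third pair, Mir-144_3p and Mir-486_5p, had r of 0.14 (permutation p = 0.673, adjusted 0.673) and rho of 0.10 (permutation p = 0.751, adjusted 0.751). Its r was -0.73 within the exercised and 0.75 within the sedentary lineage (exact permutation p = 0.0958 and 0.0806, n = 6 each). By rank the rho was -0.83 within the exercised but only 0.31 within the sedentary lineage (exact permutation p = 0.0583 and 0.564). Without the 2 libraries farthest from the Mir-144_3p median, exercised-lineage mouse 5 and sedentary-lineage mouse 3, r was -0.10. Scaled to equal totals, r over the 12 libraries was 0.59 (permutation p = 0.0447, adjusted 0.134).

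**Figure D4:**
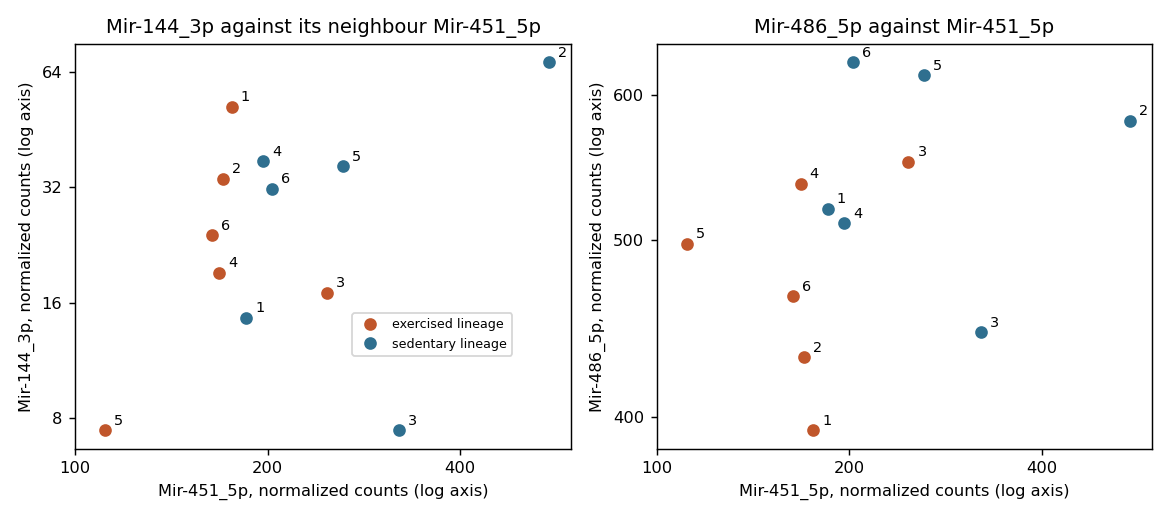
Mir-144_3p (left) and Mir-486_5p (right) against Mir-451_5p in the same library, in normalized counts on log axes, with 1 point per library labelled by mouse number. In the left panel the point at the upper right is sedentary-lineage mouse 2 (550 and 67.6), and sedentary-lineage mouse 3 has a high Mir-451_5p (321) with a low Mir-144_3p (7.44).

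The arms whose level ordered the libraries most like Mir-451_5p were found among the 469 other tested arms by Spearman rho over the 12 libraries. The highest was the 3p arm shared by Mir-92-P1a and Mir-92-P1b, with a rho of 0.78 and a Pearson r of 0.59. It stood at 1123 ± 253 normalized counts in mice of exercised lineage and 1389 ± 153 in those of sedentary lineage (SD, n = 6 each), a log2 difference of -0.33 (limma unadjusted p = 0.0391, adjusted p = 0.532). Next came Mir-598_3p (rho 0.74), the passenger arm Mir-27-P2_5p* (0.69), Mir-298_5p (0.65) and Mir-34-P2b_3p* (0.64). Differences of these 4 arms lay between -0.35 and -0.13. Of the other cluster strands, Mir-144_5p had a rho of 0.73 with Mir-451_5p and Mir-144_3p one of 0.31.

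The arms most like Mir-486_5p came from other groups. They were the 5p arm shared by Let-7-P3 and Let-7-P7 (rho 0.88), Let-7-P9_5p (0.83), Mir-3093_3p (0.78), Mir-130-P2a_3p (0.77) and Mir-140_5p* (0.76). The let-7 family is abundant in brain and in many other tissues. Let-7-P3_5p had a log2 difference of -0.22 and Let-7-P9_5p one of -0.17, close to the -0.20 of Mir-486_5p, and none of the 5 arms passed (limma adjusted p from 0.532 to 0.956). A rho over 12 libraries shares their size factors and any difference between the lineages, and the arms were picked as the highest of 469, so the values are descriptions.

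A list of other miRNAs tied to red cell formation held Mir-221 and Mir-222 (the Mir-221-P1 and Mir-221-P2 rows), which decline as erythroid precursors mature, with Mir-191, Mir-155, Mir-150, Mir-223, Mir-210 and Mir-24, and no row matched Mir-320. Of its 15 tested arms, 0 were called, as over all arms (0%), and 0 had an unadjusted p below 0.05, beside 7.17% of all arms. In the list 5 arms had a difference above 0 and 10 below, and the median was -0.05 beside -0.00 over all arms. Scaled to equal totals, 8 were above 0 and 7 below, with a median of 0.04, so the list has no direction that holds under both scalings. Mir-221-P1_3p stood at 7908 ± 1542 normalized counts in mice of exercised lineage and 8966 ± 1492 in those of sedentary lineage, a log2 difference of -0.19. The hypoxia-induced Mir-210_3p stood at 626 ± 179 in mice of exercised lineage and 626 ± 95.5 in those of sedentary lineage. Most of these miRNAs are also made by neurons, glia or vessels, so the list is not a measure of red cells.

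Among white blood cell and vessel miRNAs, 0 of 11 and 0 of 6 arms were called, as over all arms (0%), and 0 had an unadjusted p below 0.05, beside 7.17% of all arms. The leukocyte and microglia list (Mir-142, Mir-223, Mir-150, Mir-155 and Mir-146) summed to 8539 to 18559 normalized counts in mice of exercised lineage and 13742 to 20331 in those of sedentary lineage, with 6 of 11 arms above 0, 5 below and a median of 0.03. The most abundant arm of the list, Mir-146-P2_5p, stood at 12705 ± 3571 in mice of exercised lineage and 15961 ± 2673 in those of sedentary lineage. Its log2 difference was -0.37 (limma adjusted p = 0.532), and that of Mir-146-P1_5p was -0.29 (limma adjusted p = 0.560). Mir-150_5p, of lymphocytes, stood at 1330 ± 235 in mice of exercised lineage and 1372 ± 216 in those of sedentary lineage. The arms of the myeloid and platelet miRNA Mir-223 pointed apart, with 0.53 for Mir-223_3p and -0.51 for Mir-223_5p*. The endothelial and mural list (Mir-126, Mir-143 and Mir-145) summed to 312588 to 693033 in mice of exercised lineage and 339905 to 724817 in those of sedentary lineage. In it 5 of 6 arms were below 0, beside 50.2% of all arms, with a median of -0.15. Scaled to equal totals, the medians were 0.11 for the leukocyte and microglia list and -0.07 for the vessel list. No arm of either list was at 0 in any library, and the part of such cells in the Mir-451 values was not tested.

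Mir-486 is shared with muscle, whose miRNAs were also detected. The muscle list (Mir-1, Mir-133 and Mir-499, with no row for Mir-208) summed to 3096 to 5790 normalized counts in mice of exercised lineage and 3252 to 7682 in those of sedentary lineage. In it 3 of 4 arms were below 0, beside 50.2% of all arms, with a median of -0.11, and 0 were called, as over all arms (0%). Scaled to equal totals, 2 of 4 were below 0, beside 166 of all 474 arms. Mir-499_5p, of heart and slow muscle, stood at 175 ± 18.3 in mice of exercised lineage and 147.3 ± 20.8 in those of sedentary lineage. Its log2 difference was 0.25 (limma unadjusted p = 0.0489, adjusted p = 0.532), and 7.17% of all arms had an unadjusted p below 0.05. As deposited, the other 3 arms of the list were below 0, like Mir-486_5p. The choroid plexus, a vessel-rich tissue beside the hippocampus, was read from Mir-204, Mir-1298 and Mir-448. Their 6 arms summed to 30190 to 163753 in mice of exercised lineage and 28976 to 164782 in those of sedentary lineage. All 6 had a difference below 0, beside 50.2% of all arms, with a median of -0.23. At equal totals all 6 were again below 0, beside 166 of all 474 arms, with a median of -0.14. Of the 6 arms 0 were called, as over all arms (0%). They are pairs of strands from shared hairpins, so their signs are not independent. The liver miRNA Mir-122_5p had a difference of -0.06, or 0.02 at equal totals. The neuronal arms had 5 of 7 differences above 0 and a median of 0.07, or 6 of 7 and 0.16 at equal totals, with 0 called, as over all arms (0%). Of all 474 arms 236 were above 0, or 308 at equal totals. As deposited, the most abundant neuronal arms, Mir-9-P1_5p and Mir-128-P1_3p, were below 0, at -0.08 and -0.18. The part of muscle or choroid plexus in the Mir-486 and Mir-451 values was not tested.

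**Figure D5:**
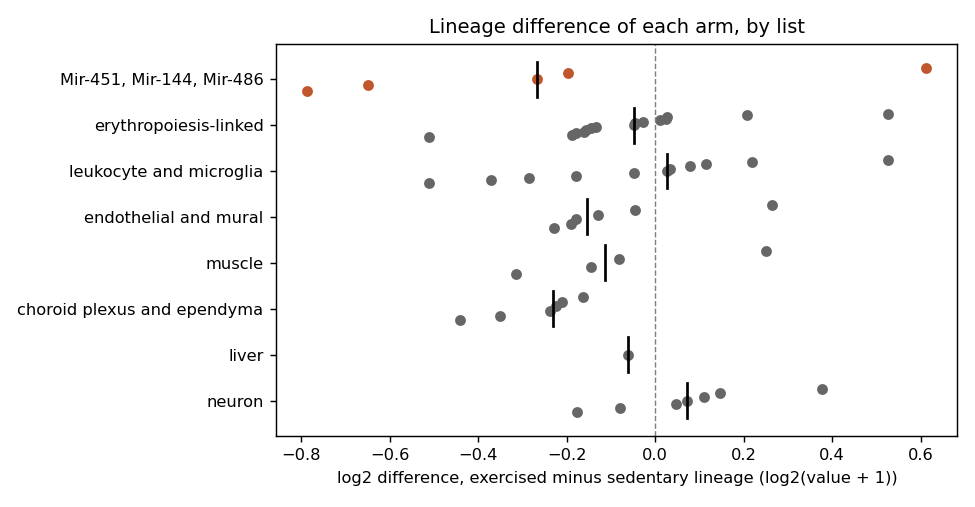
Log2 difference of every tested arm, exercised minus sedentary lineage (x axis, log2(value + 1) scale), for the 5 red-cell arms (orange) and 7 lists of other miRNAs (grey), with the median of each list as a black line. The red-cell arms have a median of -0.27 and span -0.79 to 0.61, and the neuronal arms have a median of 0.07.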

How the data were processed

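The deposited signal is a normalized count for each mature miRNA arm, scaled by the size factor of its library, from RNA extracted with a Qiagen miRNA kit and NEB Next small RNA libraries, per the labels' protocols. The submitters' processing notes name Bowtie 1.3.0, mm10 and DESeq2. Trimming, mismatches and the treatment of reads matching several loci or of rare arms are not given in these sources. All values were whole multiples, within 0.01, of 1 step per library, and the step was taken as 1 read for depth and counting intervals. The smallest values above 0 stood for 2 to 6 reads, so no count model was fitted although one had been listed as an alternative, and no molecular identifiers are mentioned, so intervals cover counting error only.

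Lineages were compared with limma 3.58.1 in R 4.3.3 (empirical Bayes with a mean-variance trend, two-sided) on log2(value + 1), over all 474 arms with a mean of at least 10, with Benjamini-Hochberg adjustment and a threshold of 0.05. The test was checked on simulated data. Correlations used 100000 permutations, or all orders within a lineage, adjusted over 3 pairs. Hairpins were folded with RNAfold 2.7.2. Sequences are from RefSeq, loci from GENCODE M21. Members and lists were chosen with earlier results of these data known. Besides the members, named arms are the 5 most like Mir-451_5p and the 5 most like Mir-486_5p, up to 4 abundant arms per list, and, chosen after their values were seen, Mir-210_3p and the Mir-223 arms. The labels number the mice but do not say whether they share litters or fathers.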

Additional observations from a re-analysis of the deposited data

Results flagged for a closer look

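Among 90 groups of 6 values (40 named arms, 4 ratios and 1 sum, in each lineage), 11 had a library standing apart. Its value was the highest or lowest, with a gap to the next past Dixon's 95% critical share of the group's range. Arms were taken as normalized counts, where a high value stands apart more readily than on the log2 scale of the tests. About 4.5 such groups arise by chance if the groups are independent and their values normal. Normality was not tested and the groups share libraries, so nothing is read from 11 beside 4.5. For the red-cell arms, Mir-451_5p stood apart in sedentary-lineage mouse 2, at 550.4 normalized counts. So did the log2 ratio of Mir-486_5p to Mir-486_3p* in the same library, at 9.19. The 3p arm is listed at 0 there, so this ratio is set by the 1 added before the log. With 3 reads in place of the 0 it is 7.16, and the library no longer stands apart. Among the arms most like Mir-451_5p and Mir-486_5p, Mir-598_3p stood apart in sedentary-lineage mouse 1 at 10090 (low), Mir-298_5p in exercised-lineage mouse 1 at 401.6 (high), and Mir-130-P2a_3p in sedentary-lineage mouse 3 at 26.0 (low). In the lists, Mir-191_5p (14970, low) and Mir-124-P1_3p (72090, high) stood apart in exercised-lineage mouse 1. Mir-145_5p did so in sedentary-lineage mouse 6 (2192, high), and the muscle arms Mir-1-P1_3p (7282, high) and Mir-1-P3_3p (158.1, high) in sedentary-lineage mouse 5. Mir-133-P1_3p was high in exercised-lineage mouse 6, at 91.8.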

How the results depend on the processing

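No arm was called under any of 25 alternatives (lowest limma adjusted p from 0.318 to 0.753), and Mir-451_5p and Mir-486_5p kept a difference below 0 in each of them. Mir-144_5p also did in each alternative in which it was fitted. It passed the filter only through the sedentary lineage, which ties its sign to the filter, so nothing is read from that. Arms at an unadjusted p below 0.05 numbered 34 (17 above 0 and 17 below), against 57 under upper-quartile scaling (52 and 5), 31 under equal totals (23 and 8), 47, 30, 16 and 19 without the R31, R41, S11 or S41 libraries in turn, 16 with the mouse number as replicate block, and 18 to 48 with 1 library left out. That block changed no call and gave Mir-451_5p an unadjusted p of 0.0182 (adjusted 0.720); deviations of same-numbered mice correlated above 0.1 for 1 of 6 numbers, and 2 of 12 libraries correlated best with their own number. The difference of Mir-144_3p turned to 0.23 without the R41 libraries and 0.13 without the S41 libraries, and ran from -0.61 to 0.020 with 1 library left out. That of Mir-486_3p* was -0.0045 without the S11 libraries, which include its value of 0. The correlation of Mir-144_3p with Mir-486_5p was -0.73 within the exercised lineage and ran from -0.022 to 0.44 with 1 library left out. The edgeR, DESeq2 and TMM alternatives were not run, since the smallest values above 0 are several reads and the deposited values are not counts. Depth limits both Mir-144 arms (5 to 66 reads per library) and Mir-486_3p* (0 to 23 reads).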
